A study of Mus musculus with 48 samples.

Results

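The core pluripotency genes and direct targets described here are Pou5f1, Sox2, Sall4, Lin28a, Utf1, Fgf4 and Tdgf1. They were chosen by symbol, with earlier results of these data known, and make up 7 of the 55291 gene symbols in each of 48 count tables. Embryonic stem cells are held in the pluripotent state by a circuit of transcription factors in which OCT4, the product of Pou5f1, binds DNA together with SOX2, and SALL4 works with both. Utf1 and Fgf4 are long-known targets of the OCT4-SOX2 pair, Lin28a encodes an RNA-binding protein that blocks maturation of let-7 microRNAs, and Tdgf1 encodes CRIPTO, a co-receptor for Nodal. Transcription largely stops in mitosis and restarts as cells enter G1, so these genes have to be copied anew in every cell cycle for the state to be kept.

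The cells were mouse embryonic stem cells of strain 129S5/SvEvBrd, grown in serum and LIF, and RNA made during a pulse of 5-ethynyluridine (EU), a uridine analogue that can be pulled out of total RNA, was sequenced. SMARCE1 is a subunit of SWI/SNF, the complex that slides and evicts nucleosomes. In Smarce1-MD cells (MD below, clones MD09 and MD30) it carries a domain that has it degraded in mitosis, and in Smarce1-MD(R42A) cells (R42A below, clones A04 and A10) that domain carries the R42A substitution, the control of the design. Each clone was sampled in asynchronous growth and again at 0, 45, 90, 180 or 240 min once nocodazole had been washed out. This microtubule poison was given at 100 ng/ml for 6 h before mitotic cells were shaken off. With 2 libraries per clone and condition there were 12 groups of 4. Both genotypes carry the added domain, each was represented by 2 clones, and cells with unmodified SMARCE1 are not part of the comparisons.

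Between 630119 and 3885219 counts per library fell on features, with the smallest libraries among MD cells at 90 min (630119 to 1518400) and among both genotypes at 0 min (762327 to 1022255). Reads in no feature took 90.2 to 94.0% of each table. The MD09 libraries at 90 min stood apart: mitochondrially encoded features held 2.22 to 4.31% and CT010467.2 4.05 to 11.3% of their counts, against at most 0.657% and 0.0805% in the 44 libraries outside MD at 90 min. The 6 embryonic stem cell markers (Nanog, Zfp42, Esrrb, Dppa5a, Tdh, Tfcp2l1) were all detected and summed to 385 to 1400 CPM (counts scaled to the library's total on features) per library. Most of this sum was Esrrb. It averaged 1060 CPM in R42A asynchronous, 892 in MD asynchronous and 784 over all libraries, beside median sums of 1210, 1040 and 984. Summed markers of other cell types reached at most 52.8 CPM for primitive endoderm, 61.7 for trophoblast, 97.0 for neural cells, 195 for mesoderm and 103 for fibroblasts, with Sox1 at 0 in all 48 libraries. Markers of primitive endoderm moved with the time course: 4 of 7 passed the filter, all 4 were called higher at 0 min than in asynchronous cells in both genotypes (median log2 fold change 2.30 in R42A and 1.35 in MD), and 3 were at 240 min (1.95 and 1.42). Their summed level was 5.19 to 6.46 CPM in R42A and 10.4 to 14.8 CPM in MD asynchronous libraries. The part of such cells in the results below was not tested. Smarce1 itself averaged 22.3 to 30.7 CPM in the 6 MD groups and 32.3 to 52.5 CPM in the 6 R42A groups. Because the domain acts on the protein, this RNA does not check the labels.

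Levels are CPM, given per library or as the mean ± SD over 2 clones. Changes are log2 fold changes ± SE from edgeR's quasi-likelihood test over 23874 features, with the 2 libraries of a clone summed, the clone as replicate (n = 2 per genotype and condition) and TMM scaling. A call means an adjusted p under 0.05, by Benjamini-Hochberg over all features tested. In the genotype tests the p-values rest on the spread between these clones within a group. Tests of time and interaction include a clone term, so their p-values rest on how unevenly these clones changed. Both fits estimate the spread over all 12 groups together, MD cells at 90 min included. TMM factors were 0.81 to 0.92 in asynchronous cells and 1.07 to 1.15 at 0 min, so a change read from CPM is larger than the tested one by 0.40 (R42A) or 0.35 (MD) on the log2 scale for 0 min against asynchronous cells and by 0.32 or 0.22 for 240 min against them. For 90 against 45 min the shift is -0.18 or -0.34, for 180 against 90 min in MD cells 0.22, and between the genotypes 0.12 in asynchronous cells and 0.11 at 45 min. In MD cells at 90 min the factors of the clones were unlike, 0.72 (MD09) and 1.12 (MD30). The MD shifts with 90 min are averages that describe neither clone. There CPM places MD09 lower relative to MD30 than TMM scaling does, so part of the CPM difference between these clones is one of scaling. All values are relative to the other features of a library, and in these bulk samples fewer cells that express a gene and less RNA per cell cannot be told apart.

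Positions are given on mm10 from GENCODE M21. Pou5f1 lies at chr17:35506018-35510772 on the plus strand, with 2248 exon bases. Sall4 lies at chr2:168748332-168767943 and Lin28a at chr4:134003330-134018841, both on the minus strand. Utf1 (chr7:139943789-139945112) and Fgf4 (chr7:144847367-144865243) share a chromosome and the plus strand, and Tdgf1 is at chr9:110939603-110946158 on the minus strand. Sox2 is a gene of 1 exon at chr3:34650405-34652461, inside the span of Sox2ot (chr3:34104270-34682619), a long noncoding RNA on the same strand with which it shares 0 exon bases.

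Sox2 was listed at 0 in all 48 libraries. A count of 0 allows up to 3 counts, which is 0.772 to 4.76 CPM depending on the library and covers counting error only. Sox2ot around it held 61 to 664 counts per library. Sox2 is a gene that every embryonic stem cell uses, so its listed 0 is given as such and not as a level, no test was made, and the other 6 members were the ones tested. Why it is at 0 was not tested.

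Exons of 3 members overlap exons of a noncoding feature on the other strand. Gm19553 (chr17:35509077-35510551) shares 317 exon bases with Pou5f1, Gm14261 (chr2:168766143-168768108) shares 526 with Sall4, and Gm13061 (chr4:134018147-134019869) shares 234 with Lin28a. No source used here gives the strand setting of the counting, so reads of these members and of their partners cannot be told apart by the tables. In R42A asynchronous cells, per kb of exon, Gm19553 held 581 ± 40.1 CPM against 15.4 ± 2.06 for Pou5f1, Gm13061 92.1 ± 0.0932 against 6.14 ± 1.47 for Lin28a, and Gm14261 62.1 ± 2.3 against 9.25 ± 0.42 for Sall4. Each member value below is therefore a count credited to that symbol, and results of these 3 members are also given with the partner's counts added where this ends a call, turns a called direction or moves a called value by over 1.5 times. Utf1, Fgf4 and Tdgf1 overlap no such feature, but the strand setting is unknown for them as well. Their counts are not shown to come from the gene's own strand. Actb, which encodes beta-actin, held 30.3 to 201 CPM per library, and what this says of the counting was not tested.

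**Figure D1:**
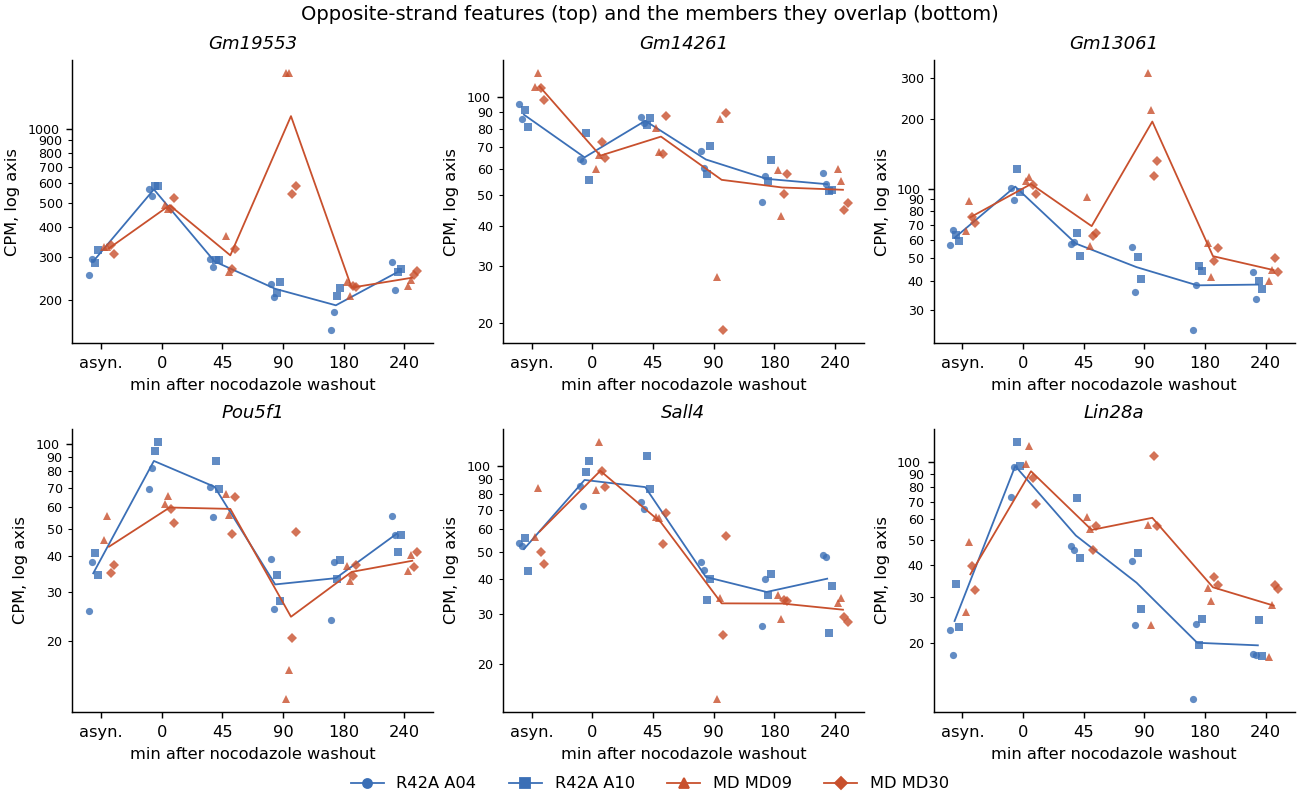
CPM per library on a log axis (its range set for each panel) for the opposite-strand features (top) and the members they overlap (bottom), by condition at equal spacing. Points are libraries, shapes are clones, and lines join the means of 4 libraries. In MD cells at 90 min the 4 Gm19553 values were 1690, 1690, 544 and 585 CPM while those of Pou5f1 were 12.5, 15.9, 20.6 and 48.8.

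The plot of opposite-strand features shows where partner and member moved apart. Gm19553 had 222 ± 4.79 CPM in R42A and 1130 ± 797 CPM in MD cells at 90 min (log2 fold change 2.58 ± 0.47, edgeR adjusted p = 0.000789), with both MD09 libraries at 1690 and the MD30 libraries at 544 and 585. Gm13061 did so as well, with 45.5 ± 0.528 CPM in R42A and 196 ± 106 in MD (2.32 ± 0.37, adjusted p = 0.000241). Gm14261 did not pass the test there (54.6 ± 0.114 CPM in MD against 63.9 ± 0.00399 in R42A, -0.12 ± 0.17, adjusted p = 0.604). Its MD libraries held 27.7 and 85.8 CPM (MD09) and 19.0 and 89.7 (MD30), so the small spread between clones arose from summing unlike libraries. Across the 24 sums, log2(CPM + 1) of Pou5f1 and Gm19553 had a Pearson r of -0.06, and 0.76 over the 20 sums without 90 min. For Lin28a and Gm13061 r was 0.69 and 0.89, and for Sall4 and Gm14261 0.57 and 0.54, as descriptions over sums that share libraries and scaling. Gm19553 counts followed depth little. R42A libraries held 433 to 482 of them at 0 min and 576 to 607 at 180 min, on 762327 to 896670 and 2684576 to 3885219 assigned counts. Its CPM, its r with Pou5f1 and the values with Gm19553 added therefore depend in part on depth.

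Promoter windows of 250 bases before to 50 bases after the start (RefSeq, GRCm38.p6, the assembly of mm10) were found for 6 of the 7 members, with 2 windows for Pou5f1. Of these, 3 are printed below, for the factor that heads the circuit, for Lin28a, whose window lies inside Gm13061, and for Fgf4, the member that differed most steadily between the genotypes. Each reads 5′ to 3′ on the strand of its gene, and capitals mark motifs found in either direction. The GC box is spelled GGGCGG. The CAAT box has the letters CCAAT. The SOX motif reads CATTGT. The windows are chr17:35505782-35506081 (plus), chr4:134018767-134019066 (minus) and chr7:144861136-144861435 (plus). The Fgf4 window lies inside the GENCODE span given above for Fgf4, so it marks a later start than the GENCODE one. The exon lengths used here are those of GENCODE.
Pou5f1: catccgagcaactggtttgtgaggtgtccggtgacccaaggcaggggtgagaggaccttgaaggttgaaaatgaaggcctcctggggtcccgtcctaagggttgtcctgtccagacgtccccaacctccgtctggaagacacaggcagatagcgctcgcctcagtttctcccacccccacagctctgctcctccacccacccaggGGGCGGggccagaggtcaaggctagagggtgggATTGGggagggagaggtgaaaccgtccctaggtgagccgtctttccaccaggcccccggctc
Lin28a: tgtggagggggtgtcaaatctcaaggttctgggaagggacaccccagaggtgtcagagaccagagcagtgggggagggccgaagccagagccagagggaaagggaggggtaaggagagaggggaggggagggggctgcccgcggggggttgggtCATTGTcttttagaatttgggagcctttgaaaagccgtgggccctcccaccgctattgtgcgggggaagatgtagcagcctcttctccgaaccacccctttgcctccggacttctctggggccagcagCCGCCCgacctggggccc
Fgf4: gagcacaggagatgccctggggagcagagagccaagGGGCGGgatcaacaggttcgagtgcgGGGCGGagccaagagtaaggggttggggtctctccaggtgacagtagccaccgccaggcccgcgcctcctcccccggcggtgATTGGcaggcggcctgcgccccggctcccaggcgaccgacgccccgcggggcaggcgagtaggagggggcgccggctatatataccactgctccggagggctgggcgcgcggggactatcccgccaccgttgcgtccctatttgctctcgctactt

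The GC box is present in 35.7% of all 32851 windows, the CAAT box in 37.4% and the SOX motif in 12.6%. Utf1 had 4 GC boxes, Fgf4 and Sox2 2 each, and Lin28a, Tdgf1 and the printed Pou5f1 window 1 each. The SOX motif stood in the Lin28a window and in the other Pou5f1 window. No member window held the octamer ATGCAAAT (1.74% of all windows) or TATAAA (13.6%), which says only that these letters are not in these 300 bases. GC content was 69.7% for Fgf4 and 41.7% for Tdgf1, against a median of 52.7% over all windows.

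Per kb of exon, a scale on which genes can be compared, R42A asynchronous cells held 16.5 ± 2.01 CPM of Utf1 and 15.4 ± 2.06 of Pou5f1, 9.93 ± 0.811 of Tdgf1 and 9.25 ± 0.42 of Sall4, and 6.24 ± 1.19 of Fgf4 and 6.14 ± 1.47 of Lin28a. Within each of these pairs the values differed by less than the spread between clones. In MD asynchronous cells the order was Pou5f1 (19.3 ± 4.51), Utf1 (17.8 ± 6.68), Sall4 (10.6 ± 2.88), Lin28a (9.19 ± 0.372), Tdgf1 (9.0 ± 1.77) and Fgf4 (4.06 ± 0.941). There Fgf4 lay below every other detected member by more than the spread between clones.

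**Figure D2:**
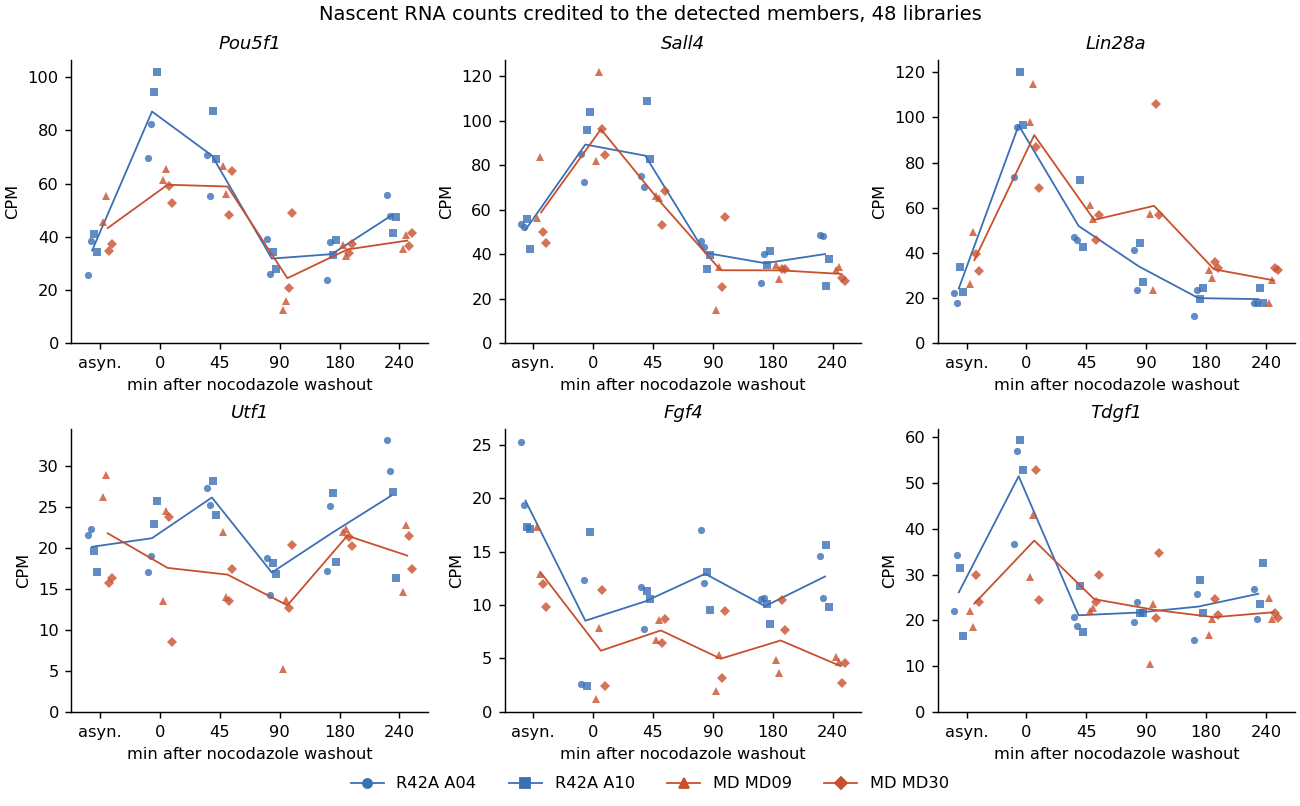
CPM of the 6 detected members in all 48 libraries, by condition (equal spacing), with 1 point per library, shapes for clones and lines through the means of 4 libraries. Lin28a, Pou5f1, Sall4 and Tdgf1 stood highest at 0 min in both genotypes, Fgf4 stood highest in asynchronous cells and lower in MD than in R42A throughout, and Utf1 moved least.

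The plot of member levels shows different courses. Ratios of the highest to the lowest group mean were 4.98 for Lin28a, 4.67 for Fgf4, 3.58 for Pou5f1, 3.13 for Sall4, 2.51 for Tdgf1 and 2.04 for Utf1. Pou5f1, Lin28a and Tdgf1 were highest in R42A cells at 0 min (87.3 ± 15.2, 97.1 ± 16.3 and 51.9 ± 6.08 CPM) and Sall4 in MD cells at 0 min (97.7 ± 9.54). Fgf4 was highest in R42A asynchronous cells (19.9 ± 3.8) and lowest in MD cells at 240 min (4.26 ± 0.891). As a description over the 24 sums, Pou5f1 and Sall4 were the most alike members (r = 0.84), and Lin28a and Fgf4 the least (r = -0.34). With TMM scaling Pou5f1 and Sall4 had 0.80, and Lin28a and Utf1 were the least alike (-0.46).

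The first question of the design is whether loss of SMARCE1 in mitosis alters transcription afterwards, and so MD was set against R42A in each condition. Of the 6 tested members, 0 were called higher and 1 lower (Fgf4) in asynchronous cells, where 5.18% of all features were called higher and 7.95% lower. At 0 min 0 members were higher and 1 lower (Pou5f1), against 3.71% and 2.95% of features. At 45 min 0 were higher and 2 lower (Sall4 and Utf1), against 10.3% and 7.33%. At 90 min Lin28a was higher and Fgf4 lower, when 15.6% and 22.1% of features were called. At 180 min Lin28a was higher and 0 members lower, against 6.55% and 7.46%. At 240 min 0 were higher and Fgf4 was lower, against 6.13% and 4.43%. The median change over the 6 members ran from -0.47 (45 min) to 0.02 (asynchronous), beside -0.13 to 0.01 over all features. The higher share of all calls depends on scaling: with TMM it was 39.5, 55.7, 58.3, 41.5, 46.8 and 58.0% in the 6 conditions in order, and without TMM 58.1, 66.0, 74.2, 35.3, 60.7 and 59.5%. Scaled to the whole table it was 45.5, 65.7, 78.3, 27.3, 58.2 and 56.6%.

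**Figure D3:**
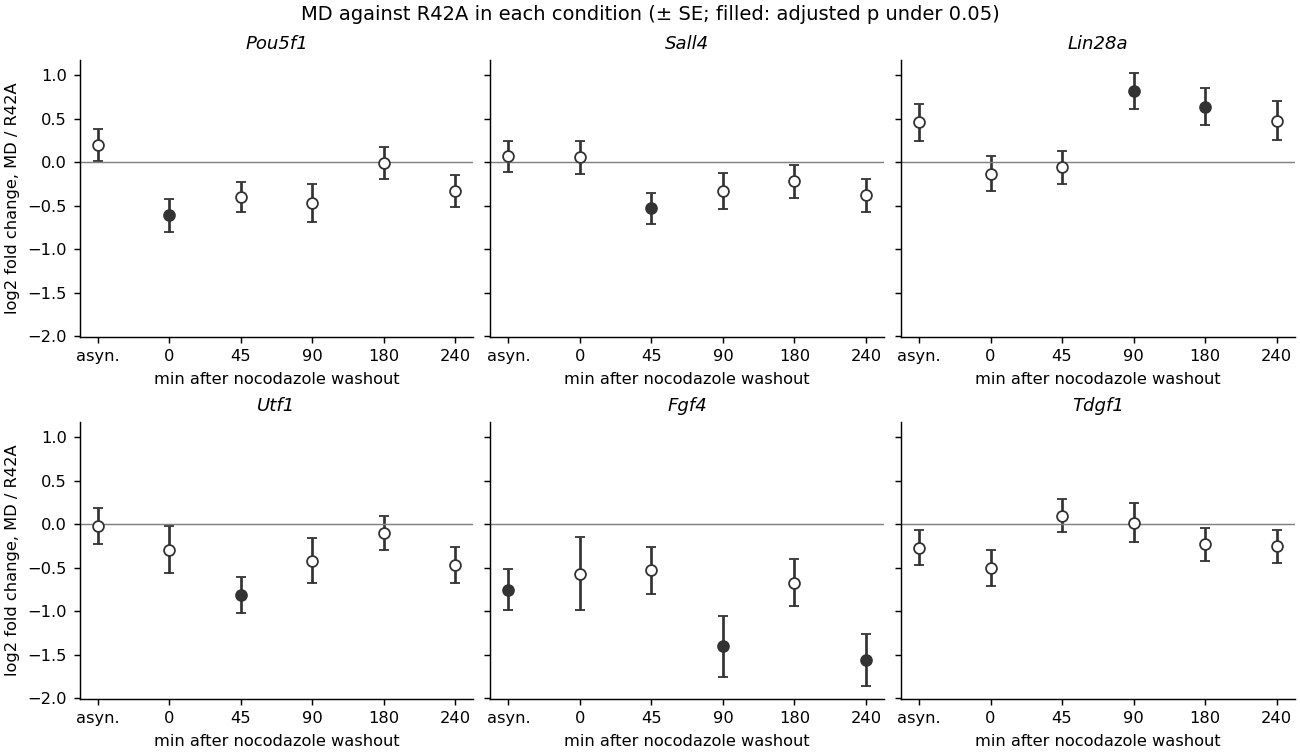
Log2 fold change of MD against R42A ± SE (edgeR, 2 clones per genotype) for the 6 tested members in asynchronous cells and at 5 times after washout. Filled points have an adjusted p under 0.05; Fgf4 lies below 0 in all 6 conditions and Lin28a is above 0 at 90 and 180 min with filled points.

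Within R42A cells, 0 min against asynchronous growth gave 3 members higher (Pou5f1, Lin28a, Tdgf1) and 1 lower (Fgf4), beside 19.1% and 27.2% of features. From 0 to 45 min 0 were higher and 2 lower (Lin28a, Tdgf1), beside 25.0% and 21.6%. From 45 to 90 min 0 were higher and 3 lower (Pou5f1, Sall4, Lin28a), beside 20.5% and 20.2%. From 90 to 180 min 0 were higher and Lin28a was lower, beside 20.7% and 17.3%. No member was called from 180 to 240 min by edgeR (1 at an unadjusted p under 0.05, 0 by DESeq2), when 0.926% of features were higher and 4.03% lower. At 240 min against asynchronous cells 0 were higher and 3 lower (Sall4, Lin28a, Fgf4), beside 19.3% and 26.1%. Without TMM the higher share of all calls went from 41.2 to 61.7% for 0 min against asynchronous cells, from 50.3 to 37.9% for 90 against 45 min, from 54.4 to 62.1% for 180 against 90 min, from 18.7 to 31.4% for 240 against 180 min and from 42.5 to 63.0% for 240 min against asynchronous cells. Scaled to the whole table these shares were 59.0, 23.5, 85.6, 25.4 and 72.3%.

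In MD cells, 0 min against asynchronous growth gave 1 member higher (Lin28a) and 2 lower (Utf1, Fgf4), beside 18.0% and 24.6% of features. From 0 to 45 min 0 were higher and 3 lower (Sall4, Lin28a, Tdgf1), beside 23.1% and 17.1%. From 45 to 90 min Lin28a was higher and 2 lower (Pou5f1, Sall4), beside 20.1% and 25.2%. From 90 to 180 min Utf1 was higher and Lin28a lower, beside 26.7% and 18.6%. No member was called from 180 to 240 min by edgeR (0 at an unadjusted p under 0.05, 0 by DESeq2), with 0.138% of features higher and 0.205% lower. At 240 min against asynchronous cells 0 were higher and 3 lower (Sall4, Lin28a, Fgf4), beside 20% and 23.5%. Without TMM the higher share went from 42.1 to 63.8% for 0 min against asynchronous cells, from 44.4 to 24.8% for 90 against 45 min, from 59.0 to 73.0% for 180 against 90 min and from 46.0 to 61.3% for 240 min against asynchronous cells. Scaled to the whole table these shares were 65.1, 11.7, 88.2 and 75.7%, and 69.5% in place of 57.5% for 45 against 0 min.

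**Figure D4:**
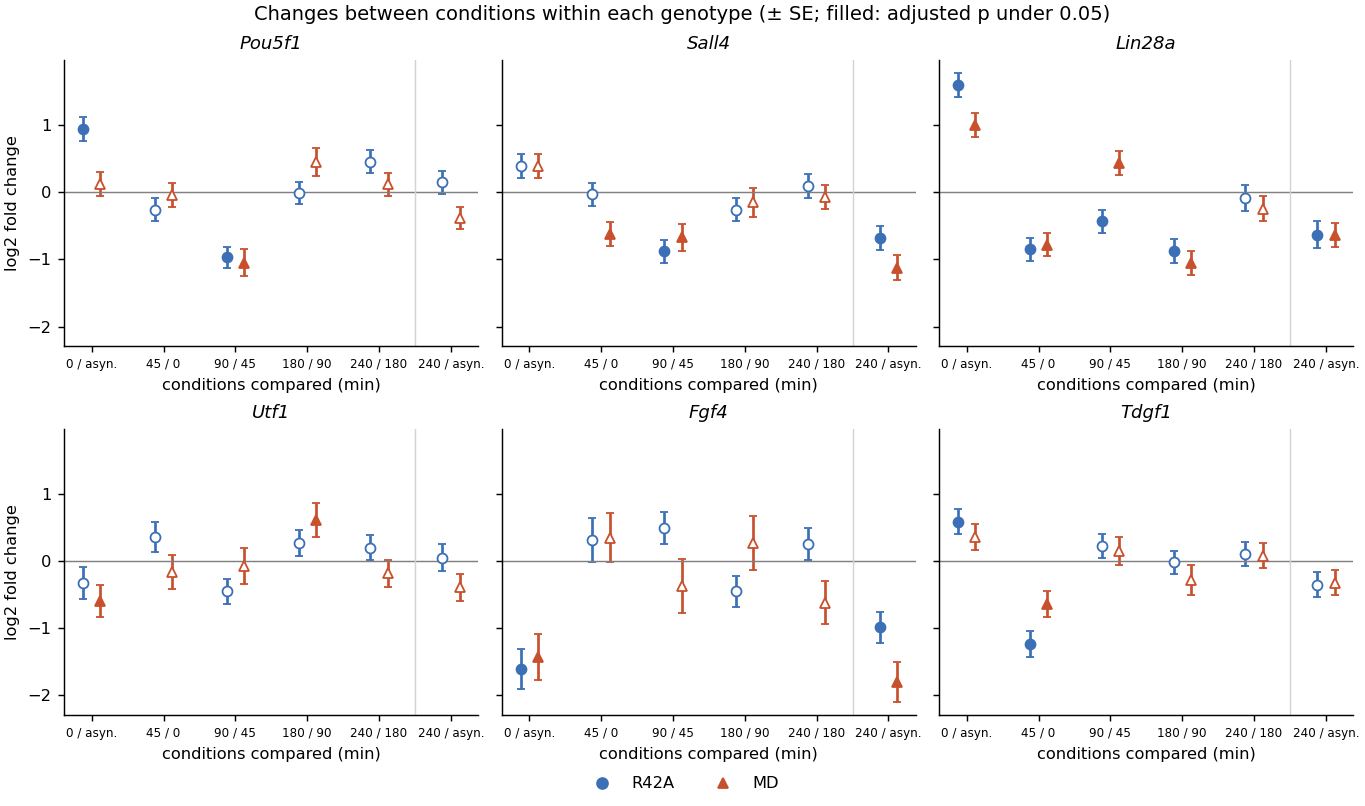
Log2 fold change ± SE (edgeR with a clone term) between the conditions named on the axis, in minutes after washout, for R42A (circles) and MD (triangles). Filled symbols have an adjusted p under 0.05; the last column of each panel sets 240 min against asynchronous cells, where Fgf4, Sall4 and Lin28a are below 0 with filled symbols in both genotypes.

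Whether a change over time differed between the genotypes was tested as an interaction. No member was called for 0 min against asynchronous cells (0.854% of features higher and 0.276% lower in MD), for 45 against 0 min (0.0922% and 0.0503%) or for 240 min against asynchronous cells (1.01% and 0.503%) by edgeR. At an unadjusted p under 0.05 there were 2 members in each of these 3 tests, and DESeq2 called 0 in each. For these 3 changes, a call in one genotype and not in the other is therefore not shown to differ between them. Interactions were not fitted for the other steps, so genotype differences in those steps were not tested. Among them is Lin28a from 45 to 90 min, called lower in R42A and higher in MD cells. Without TMM the higher share of the interaction calls was 72.5, 86.2 and 44.2%, against 75.6, 64.7 and 66.9% with it and 86.0, 90.9 and 55.9% scaled to the whole table.

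Pou5f1 encodes OCT4, the POU-domain factor without which the embryo forms no pluripotent cells. Asynchronous R42A libraries held 25.7, 38.3 (A04), 41.1 and 34.3 CPM (A10), and at 0 min they held 69.5, 82.5, 94.5 and 102. All 4 libraries at 0 min were above all 4 asynchronous ones (0.94 ± 0.18, adjusted p = 2.59e-05). With Gm19553 counts added the change was 0.63 ± 0.43 and was not called (adjusted p = 0.271). That sum was mostly Gm19553, which held 8.33 times the Pou5f1 counts in asynchronous cells and 6.56 times at 0 min. It therefore cannot test the change of Pou5f1 counts themselves.

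In MD cells the Pou5f1 libraries held 45.6, 55.4 (MD09), 34.8 and 37.4 CPM (MD30) in asynchronous growth and 61.2, 65.5, 59.0 and 52.7 at 0 min. Of the 0 min libraries 3 were above every asynchronous one, and the change did not pass the test (0.13 ± 0.18, adjusted p = 0.605). The difference between the genotypes in this step was -0.81 ± 0.25 (adjusted p = 0.102), which did not pass either. At 0 min itself every MD library was below every R42A library, at 59.9 ± 5.31 against 87.3 ± 15.2 CPM (-0.61 ± 0.19, adjusted p = 0.047). This call sat at the threshold, held in 6 of 23 alternatives, and was lost with any of the 4 clones left out (adjusted p 0.0746 to 0.31). With Gm19553 added it was -0.33 (adjusted p = 0.748), a sum that was again mostly Gm19553 (6.56 times the Pou5f1 counts in R42A and 8.17 times in MD).

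From 45 to 90 min Pou5f1 fell in both genotypes. R42A cells went from 70.4 ± 11.2 to 31.6 ± 0.616 CPM (-0.97 ± 0.16, adjusted p = 4.15e-06), with all 4 libraries at 90 min (26.0 to 39.2) below those at 45 min (55.2 to 87.3). MD cells went from 57.7 ± 3.24 to 24.4 ± 14.6 CPM (-1.05 ± 0.2, adjusted p = 4.2e-05). The MD libraries at 90 min held 12.5 and 15.9 CPM (MD09) and 20.6 and 48.8 (MD30), from 13 to 31 counts each, and the highest overlapped the lowest at 45 min (48.1). Without clone MD09 the fall was -0.66 ± 0.29 (adjusted p = 0.1). With Gm19553 added the MD change was 2.13 ± 0.45 (adjusted p = 0.00276), that is a rise, and the R42A change was -0.32 ± 0.43 (adjusted p = 0.609). Counted so, the sum of both features was higher in MD than in R42A cells at 90 min (2.42 ± 0.45, adjusted p = 0.00094). It fell in MD cells from 90 to 180 min (-2.45 ± 0.46, adjusted p = 0.0012), and neither change was called on Pou5f1 counts alone. In MD cells at 90 min that sum was mostly Gm19553, with 5514 counts against 84 of Pou5f1. In R42A cells Gm19553 held 4.13 times the Pou5f1 counts at 45 min and 7.03 times at 90 min. The sum was not refitted without clone MD09. On its own counts Pou5f1 passed no test in later steps: R42A cells had 33.3 ± 3.8 CPM at 180 min and 47.8 ± 4.68 at 240 min (0.46 ± 0.17, adjusted p = 0.108), and MD cells 35.2 ± 0.62 and 38.5 ± 0.648.

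Sall4 encodes a zinc-finger factor that binds with OCT4 and recruits the NuRD complex. Its level at 0 min (89.1 ± 15.3 CPM in R42A, 97.7 ± 9.54 in MD) was above that of asynchronous cells (51.2 ± 2.32 and 58.8 ± 15.9). In the main fit neither change passed the test (0.40 ± 0.18 in both, adjusted p = 0.067 and 0.0659). The R42A change was called in 13 of 22 alternatives and the MD change in 12 of 22. With TMM kept and the 48 libraries fitted singly, the changes were 0.61 (adjusted p = 0.00346) and 0.57 (adjusted p = 0.0058). Without TMM these changes were 0.80 (adjusted p = 0.0023) and 0.74 (adjusted p = 0.00456). With Gm14261 counts added the direction turned, to -0.26 in R42A, not called, and to -0.36 in MD cells (adjusted p = 0.0454). That call, among the 12 for MD cells, was lower.

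Sall4 then fell in both genotypes. In R42A cells the libraries held 75.0, 70.4, 109 and 83.0 CPM at 45 min and 46.0, 43.2, 33.6 and 39.9 at 90 min, with no overlap (-0.88 ± 0.17, adjusted p = 3.46e-05). In MD cells the fall came in 2 steps, from 97.7 to 62.8 ± 4.05 CPM by 45 min (-0.62 ± 0.18, adjusted p = 0.00386) and to 32.5 ± 12.1 by 90 min (-0.67 ± 0.2, adjusted p = 0.00536). Of these, the later step was -0.53 ± 0.3 (adjusted p = 0.217) without clone MD09, and the earlier was -0.60 (adjusted p = 0.0883). With Gm14261 added both MD steps were lost, at -0.25 (adjusted p = 0.187) to 45 min and -0.31 (adjusted p = 0.101) to 90 min, while the R42A fall from 45 to 90 min was -0.51 (adjusted p = 0.00345). The R42A change from 0 to 45 min was -0.03 ± 0.17 (adjusted p = 0.909), and the difference between genotypes in that step was -0.60 ± 0.25 (adjusted p = 0.372).

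At 45 min Sall4 was lower in MD than in R42A cells. MD libraries held 66.1, 65.4, 53.3 and 68.4 CPM against 75.0, 70.4, 109 and 83.0, so the groups did not overlap (-0.53 ± 0.18, adjusted p = 0.0321). The call held in 14 of 23 alternatives and was lost without clone A10 (-0.35, adjusted p = 0.272), without MD09 (adjusted p = 0.105), without MD30 (adjusted p = 0.135) and with Gm14261 added (-0.41, adjusted p = 0.0537). At 240 min Sall4 stood at 40.1 ± 11.7 CPM in R42A (25.9 to 48.8) and 31.2 ± 3.39 in MD cells (28.2 to 34.2), below asynchronous cells by -0.68 ± 0.18 (adjusted p = 0.0015) and -1.12 ± 0.18 (adjusted p = 1.68e-06). The R42A value was -0.35 and not called without TMM (adjusted p = 0.192), and -0.54 without clone A10 (adjusted p = 0.0612).

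Lin28a showed the largest rise of any member at 0 min. In R42A cells it had 22.4, 17.9 (A04), 33.8 and 22.9 CPM (A10) in asynchronous growth and 73.5, 95.9, 120 and 96.7 at 0 min (1.60 ± 0.18, adjusted p = 1.26e-09). In MD cells it had 26.2, 49.2 (MD09), 39.7 and 32.0 CPM (MD30) and then 98.0, 115, 87.0 and 68.6 (1.00 ± 0.18, adjusted p = 1.1e-05). The groups did not overlap in either genotype. Gm13061, on the other strand, averaged 61.2 and 75.2 CPM in asynchronous and 102 and 105 CPM in 0 min cells. With it added the R42A change was 0.82 (adjusted p = 0.00577) and the MD change 0.47, not called (adjusted p = 0.102).

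After washout Lin28a fell from step to step in R42A cells, to 52.1 ± 8.15 CPM at 45 min (-0.85 ± 0.17, adjusted p = 6.91e-05), 33.9 ± 3.1 at 90 min (-0.43 ± 0.17, adjusted p = 0.0337) and 19.7 ± 3.19 at 180 min (-0.87 ± 0.18, adjusted p = 0.000115). The middle step held in 11 of 21 alternatives and was lost with either clone left out. With Gm13061 added the steps to 90 and 180 min were not called (-0.29 and -0.55, adjusted p = 0.323 and 0.0587). In MD cells Lin28a fell to 53.9 ± 4.82 CPM at 45 min (-0.78 ± 0.17, adjusted p = 0.000276; -0.64 and adjusted p = 0.0505 without MD09), then stood at 61.5 ± 28.1 at 90 min (0.44 ± 0.18, adjusted p = 0.039) and 32.7 ± 2.79 at 180 min (-1.05 ± 0.18, adjusted p = 8.44e-06). The 90 min libraries held 57.3 and 23.5 CPM (MD09) and 106 and 56.6 (MD30), from 31 to 87 counts, a spread that covered the whole range at 45 min (45.7 to 61.2). The MD step from 45 to 90 min was 0.25 (adjusted p = 0.465) without clone MD30, 0.70 (adjusted p = 0.0388) without clone MD09, 0.13 (adjusted p = 0.698) without the library MD09 replicate 1, and -0.30 (adjusted p = 0.261) when scaled to the whole table. With Gm13061 added it was 1.51 (adjusted p = 9.76e-06), the step to 180 min was -1.91 (adjusted p = 5.57e-07), and that from 0 to 45 min -0.70 (adjusted p = 0.0164). In all 4 clones at 90 min the library numbered 1 held more Lin28a than that numbered 2.

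Lin28a was the only member called higher in MD cells. At 90 min MD had 61.5 ± 28.1 CPM against 33.9 ± 3.1 in R42A (41.5, 23.5, 44.4 and 27.1), a change of 0.82 ± 0.21 (adjusted p = 0.00193), or 1.86 (adjusted p = 1.41e-05) with Gm13061 added. Of the MD libraries 3 were above all R42A libraries and the other had the same 23.5 CPM as the lowest of them. Without clone MD09 the change was 0.97 ± 0.26 (adjusted p = 0.00818), but without MD09 replicate 1 alone it was 0.52 (adjusted p = 0.153) and without MD30 replicate 1 alone 0.55 (adjusted p = 0.0602). At 180 min MD libraries held 32.6, 29.0, 36.0 and 33.4 CPM against 12.1, 23.7, 19.5 and 24.6, with no overlap (0.64 ± 0.21, adjusted p = 0.0314). This call was lost with Gm13061 added (0.44, adjusted p = 0.296) or without clone A04 (0.46, adjusted p = 0.266), MD09 (0.71, adjusted p = 0.0931) or MD30 (0.62, adjusted p = 0.151), and held in 12 of 23 alternatives. In asynchronous cells (36.7 ± 1.49 against 24.5 ± 5.86 CPM) and at 240 min (27.8 ± 7.2 against 19.5 ± 2.2) the MD clones were also above the R42A clones, without passing the test (0.46 ± 0.21 and 0.48 ± 0.22, adjusted p = 0.154 and 0.167). At 240 min Lin28a was below asynchronous cells by the same -0.63 in both genotypes (adjusted p = 0.00676 and 0.00451), calls that were lost without TMM (-0.32 and -0.41, adjusted p = 0.29 and 0.135). In R42A cells the call was also lost with either clone left out (-0.55 and -0.59, adjusted p = 0.157 and 0.13), and in MD cells without MD09 (-0.37, adjusted p = 0.289).

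Utf1 encodes a chromatin-bound protein of undifferentiated cells whose enhancer is bound by OCT4 and SOX2. It had the narrowest range of the members, from 12.9 ± 5.25 CPM (MD at 90 min) to 26.3 ± 6.7 (R42A at 240 min). At 45 min R42A libraries held 27.3, 25.3, 28.2 and 24 CPM and MD libraries 22.0, 14.0, 13.6 and 17.5. The groups did not overlap, and MD was lower by -0.81 ± 0.21 (adjusted p = 0.00571), which held in 22 of 23 alternatives and was lost when libraries were scaled to the whole table (-0.67, adjusted p = 0.0683).

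In no other condition did Utf1 pass the test between genotypes. It was called lower in MD cells at 0 min than in asynchronous ones (18.2 ± 1.94 against 21.8 ± 8.19 CPM, -0.59 ± 0.24, adjusted p = 0.0418) and higher at 180 than at 90 min (21.5 ± 0.946 against 12.9 ± 5.25, 0.61 ± 0.25, adjusted p = 0.0467). These calls held in 7 of 22 and 4 of 21 alternatives. The 0 min call was lost with either MD clone left out (-0.30 and -0.77, adjusted p = 0.589 and 0.0751), and the 180 min call as well (0.43 and 0.71, adjusted p = 0.461 and 0.115). Counts were 7 to 25 per library at 0 min and 8 to 18 at 90 min. In R42A cells no step of Utf1 was called, with changes from -0.45 to 0.36.

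Fgf4 encodes the growth factor with which embryonic stem cells drive their own ERK signalling and prepare to differentiate. It was lower in MD than in R42A cells in all 6 conditions, with both MD clones below both R42A clones in each. In asynchronous cells R42A libraries held 25.3, 19.4, 17.3 and 17.1 CPM and MD libraries 17.3, 12.9, 12 and 9.85, so a single MD library reached into the R42A range (-0.75 ± 0.24, adjusted p = 0.0359). This call held in 9 of 23 alternatives. Left out in turn, clones A04 (-0.49, adjusted p = 0.436), MD09 (-0.97, adjusted p = 0.0529) and MD30 (-0.51, adjusted p = 0.312) each took it past the threshold, as did DESeq2 (-0.73, adjusted p = 0.136).

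At 90 min the Fgf4 libraries held 17.0, 12.1, 13.1 and 9.51 CPM in R42A and 1.98, 5.32, 3.17 and 9.44 in MD cells. The groups did not overlap and the change was -1.40 ± 0.35 (adjusted p = 0.00192), called in 22 of 22 alternatives, on 18 counts in the 4 MD libraries. Without clone MD09 it was -1.31 ± 0.46 (adjusted p = 0.0451). At 240 min the libraries held 14.6, 10.7, 15.6 and 9.78 CPM in R42A and 5.14, 4.65, 2.75 and 4.62 in MD cells. Again there was no overlap, with -1.56 ± 0.3 (adjusted p = 0.000466), called in 23 of 23 alternatives. Changes at 0, 45 and 180 min were -0.57 ± 0.42, -0.53 ± 0.27 and -0.67 ± 0.27, and did not pass the test (adjusted p = 0.497, 0.184 and 0.0898).

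At 0 min Fgf4 moved opposite to the calls of Pou5f1, Lin28a and Tdgf1 in R42A cells and of Lin28a alone in MD cells. It was lower at 0 min than in asynchronous cells, at 8.6 ± 1.08 against 19.9 ± 3.8 CPM in R42A (-1.61 ± 0.3, adjusted p = 2.61e-05) and at 6.1 ± 1.7 against 13 ± 3.01 in MD cells (-1.43 ± 0.34, adjusted p = 0.000733). The libraries of a clone differed widely at 0 min, with 2.62 and 12.3 CPM (A04), 2.42 and 16.8 (A10), 1.22 and 7.83 (MD09) and 11.4 and 2.45 (MD30), from 1 to 13 counts each. Fitted singly, the 48 libraries gave -1.40 ± 0.34 (adjusted p = 0.000542) and -1.26 ± 0.39 (adjusted p = 0.00598). The R42A fall was -1.14 (adjusted p = 0.0566) without clone A04, and the MD fall -0.94 (adjusted p = 0.132) without MD09.

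Fgf4 passed no test in the 4 later steps of either genotype and was still low at 240 min. There it was below asynchronous cells by -0.99 ± 0.23 in R42A (12.5 ± 0.171 CPM, adjusted p = 0.000382) and by -1.80 ± 0.3 in MD cells (4.26 ± 0.891, adjusted p = 2.58e-06), the latter in 22 of 22 alternatives. Without clone A04 the R42A value was -0.56 (adjusted p = 0.262). The difference between these changes was -0.81 ± 0.38 (adjusted p = 0.388). Fgf3, another FGF ligand gene that lies ahead of Fgf4 on the same strand, went from 3.06 ± 0.791 CPM at 0 min to 37.9 ± 11.3 at 240 min in R42A and from 4.68 ± 1.85 to 33.6 ± 0.283 in MD cells, and was above asynchronous cells at 240 min (0.94 ± 0.22 and 1.26 ± 0.23, adjusted p = 0.000385 and 1.94e-05).

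Tdgf1 encodes CRIPTO, which lets Nodal and GDF ligands signal through activin receptors. In R42A cells its libraries held 22.0, 34.3, 31.5 and 16.6 CPM in asynchronous growth, 36.7, 56.9, 59.4 and 52.9 at 0 min and 20.8, 18.7, 27.4 and 17.5 at 45 min. All libraries at 0 min were above those on either side, with a rise of 0.59 ± 0.19 (adjusted p = 0.00905) and a fall of -1.24 ± 0.19 (adjusted p = 6.5e-07). The rise was 0.39 (adjusted p = 0.27) without clone A10. In MD cells Tdgf1 had 23.6 ± 4.64 CPM in asynchronous growth, 38.4 ± 2.03 at 0 min and 24.5 ± 2.95 at 45 min, where the rise did not pass (0.36 ± 0.2, adjusted p = 0.139) and the fall did (-0.64 ± 0.19, adjusted p = 0.00752). Without clone MD09 this fall was -0.59 (adjusted p = 0.142), and without the library MD30 replicate 1 at 0 min it was -0.42 (adjusted p = 0.148). The difference in this fall between genotypes was 0.60 ± 0.27 (adjusted p = 0.417). From 45 to 240 min the group means stayed between 20.7 and 25.6 CPM, and no step passed the test.

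No condition gave a call for Tdgf1 between the genotypes. The largest difference was at 0 min, with 36.7 to 59.4 CPM in R42A and 29.4, 43.0, 52.8 and 24.5 in MD cells, which overlapped (-0.50 ± 0.21, adjusted p = 0.154).

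Around the members, 31 genes of the pluripotency network, listed with earlier results of these data known, were all tested. Between MD and R42A, 2 were higher and 2 lower in asynchronous cells, 0 and 6 at 0 min, 2 and 11 at 45 min, 2 and 10 at 90 min, 1 and 6 at 180 min and 1 and 7 at 240 min. Over all features the shares called higher and lower were 5.18 and 7.95%, 3.71 and 2.95%, 10.3 and 7.33%, 15.6 and 22.1%, 6.55 and 7.46%, and 6.13 and 4.43%. Without clone MD09 the list's 90 min counts were 1 and 7. The list's median change was 0.09, -0.17, -0.41, -0.24, -0.09 and -0.21 in that order, beside -0.05, 0.00, 0.01, -0.13, -0.02 and 0.01 over all features. Tbx3, a T-box factor of naive pluripotency, was lower in MD cells in every condition, from -1.06 ± 0.23 in asynchronous cells (adjusted p = 0.00137) to -1.87 ± 0.29 at 0 min (10.4 against 36.5 CPM, adjusted p = 5.29e-05). Klf5, a Kruppel-like factor of the same state, was lower at 0, 45, 90 and 180 min, by as much as -2.0 ± 0.33 at 90 min (5.85 against 23.8 CPM, adjusted p = 1.04e-05; -2.03 ± 0.45 and adjusted p = 0.00204 without MD09). Zfp42, which encodes REX1, was lower at 0 min (-0.91 ± 0.17, adjusted p = 0.000552) and 240 min (-0.80 ± 0.17, adjusted p = 0.00117). Dnmt3l, the cofactor of the de novo DNA methyltransferases, was higher in MD asynchronous cells (0.94 ± 0.19, adjusted p = 0.000499) and at 180 and 240 min (0.90 ± 0.19 and 1.03 ± 0.2, adjusted p = 0.00124 and 0.000449).

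Over time the network list moved both ways. At 0 min against asynchronous cells 10 were higher and 7 lower in R42A and 4 and 14 in MD, beside 19.1 and 27.2% and 18.0 and 24.6% of all features. Nanog, the homeodomain factor of the circuit, was higher at 0 min in R42A cells (34.5 against 11.8 CPM, 1.14 ± 0.21, adjusted p = 2.11e-05), and Zfp296 was lower (4.94 against 21.9 CPM, -2.54 ± 0.33, adjusted p = 2e-08). From 45 to 90 min 2 were higher and 13 lower in R42A and 2 and 11 in MD (1 and 3 without clone MD09), among them Zscan10 (-1.20 ± 0.17, adjusted p = 1.27e-07, and -1.60 ± 0.21, adjusted p = 3.24e-08; -1.36 ± 0.31 and adjusted p = 0.00079 in MD without MD09). From 0 to 45 min the counts were 9 and 6 in R42A and 3 and 6 in MD, from 90 to 180 min 6 and 3 in R42A and 10 and 7 in MD (6 and 4 without MD09), and from 180 to 240 min no gene was called in either by edgeR. The shares of all features in R42A and MD were 25.0 and 21.6% and 23.1 and 17.1% from 0 to 45 min. From 45 to 90 min they were 20.5 and 20.2% and 20.1 and 25.2%, and from 90 to 180 min 20.7 and 17.3% and 26.7 and 18.6%. From 180 to 240 min they were 0.926 and 4.03% and 0.138 and 0.205%. At 240 min against asynchronous cells 1 was higher and 8 lower in R42A and 0 and 15 in MD. The shares of all features there were 19.3 and 26.1% in R42A and 20 and 23.5% in MD. Klf2 was lower in both genotypes (-1.02 ± 0.22, adjusted p = 0.00011, and -1.48 ± 0.21, adjusted p = 1.5e-07). In the interactions Zfp42 alone was called, for 0 min against asynchronous cells (-0.88 ± 0.23, adjusted p = 0.0431).

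Of 20 partners of Fgf4, Tdgf1 and Lin28a (FGF receptors, Nodal ligands, activin receptors and factors of the let-7 pathway), 18 were in the tables and 17 were tested. This list too was made with earlier results of these data known. Between MD and R42A 0 were higher and 3 lower in asynchronous cells, 0 and 1 at 0 min, 0 and 0 at 45 min, 3 and 3 at 90 min (2 and 3 without clone MD09) and 1 and 1 at both 180 and 240 min. The shares of all features called there were 5.18 and 7.95%, 3.71 and 2.95%, 10.3 and 7.33%, 15.6 and 22.1%, 6.55 and 7.46%, and 6.13 and 4.43%. Among the receptors of Fgf4, Fgfr1 was lower in MD cells at 90, 180 and 240 min (-0.55 ± 0.16, -0.44 ± 0.15 and -0.48 ± 0.15, adjusted p = 0.00671, 0.0403 and 0.0309). Fgfr3 was lower in MD asynchronous cells (-1.01 ± 0.23, adjusted p = 0.00266). Fgfr1 was higher at 240 min than in asynchronous cells (231 against 42.3 CPM in R42A, 2.13 ± 0.16, adjusted p = 3.73e-15; 169 against 39.2 in MD, 1.89 ± 0.16, adjusted p = 2.04e-13). Fgfr4 was higher there too (3.07 ± 0.22 in R42A, adjusted p = 2.48e-15, and 2.57 ± 0.22 in MD, adjusted p = 1.68e-13), and Fgfr3 was lower in R42A (5.69 against 23.1 CPM, -2.34 ± 0.25, adjusted p = 8.91e-11). Nodal, whose signal needs CRIPTO, was lower in MD asynchronous cells (-0.67 ± 0.19, adjusted p = 0.0171) and higher at 90 min (0.68 ± 0.2, adjusted p = 0.00708), a call that was lost without clone MD09 (0.39 ± 0.28, adjusted p = 0.367). Trim71, a let-7 target that LIN28A protects, rose with Lin28a at 0 min (464 against 105 CPM in R42A, 1.75 ± 0.16, adjusted p = 3.77e-12; 387 against 151 in MD, 1.02 ± 0.16, adjusted p = 9.9e-07). Lin28b, the paralogue of Lin28a, fell from 0 to 45 min in R42A (-1.38 ± 0.23, adjusted p = 3.44e-06) and MD cells (-1.27 ± 0.22, adjusted p = 1.07e-05). Acvr1b, a type I activin receptor, and Nodal were called in the interaction for 240 min against asynchronous cells (1.43 ± 0.3 and 0.99 ± 0.26, adjusted p = 0.00462 and 0.0307).

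In the steps over time 5 partners were higher and 4 lower in R42A, and 6 and 4 in MD, at 0 min against asynchronous cells, beside 19.1 and 27.2% and 18.0 and 24.6% of all features. The counts were 5 and 2 against 6 and 2 from 0 to 45 min, 3 and 5 in both genotypes from 45 to 90 min (2 and 5 in MD without clone MD09), and 4 and 4 against 6 and 3 from 90 to 180 min (5 and 3 without MD09). All features had 25.0 and 21.6% against 23.1 and 17.1%, 20.5 and 20.2% against 20.1 and 25.2%, and 20.7 and 17.3% against 26.7 and 18.6%. From 180 to 240 min the partner counts were 2 and 1 against 1 and 0. All features had 0.926 and 4.03% against 0.138 and 0.205% in that step. At 240 min against asynchronous cells the partner counts were 4 and 4 against 6 and 4. There all features had 19.3 and 26.1% against 20 and 23.5%. The median of the partners lay between -0.24 and 0.34 in these steps, and that of all features between -0.12 and 0.17.

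The features whose profiles over the 24 sums were most like each member were sought among 6273 with a mean of at least 20 CPM, by Pearson r of log2(CPM + 1), as a description of sums that share libraries and depth. For Pou5f1 they were Akap12 (0.94) and Eif4ebp1 (0.93), for Sall4 Baz2a (0.93) and Git1 (0.92), and for Lin28a Lasp1 (0.97) and Xpo1 (0.96). Tdgf1 was most like Stt3b (0.90) and Bex1 (0.89), and Fgf4 most like Pkd1l3 (0.86) and Champ1 (0.85). Utf1 had the weakest likenesses, Rbbp7 and Ier2 (0.82 each), which dropped to 0.62 and 0.68 without the 90 min sums. The mean profile of the members was most like that of Tet1 (0.94), followed by Mki67 and Akap12 (0.93 each) and Ptms and Eif4e2 (0.92 each).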

How the data were processed

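Nascent, EU-labelled RNA was measured in 48 libraries of mouse embryonic stem cells; the capture and library kits and culture conditions are as the labels' protocols give them. The deposited values are whole-number counts per gene symbol, not normalized, in 1 table per library. Trim Galore 0.60, STAR 2.7.1a, RSEM 1.3.0 and mm10 are named in the submitters' processing notes, without role or order. No source used here gives the strand setting. Each table holds 55291 symbols and 5 counter entries, which were kept out of totals and tests. The entry for reads in no feature held 90.2 to 94.0%.

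The 2 libraries of a clone and condition were summed (24 sums), since the labels do not say whether they came from separate cultures. Their chi-square over its degrees of freedom was 1.08 to 26.8, so none was counted as a repeat deposit. R 4.3.3, edgeR 4.0.16 (filterByExpr with minimum count 10 and total 15, TMM, robust quasi-likelihood fit) and Benjamini-Hochberg adjustment at 0.05 over 23874 features gave the calls. The genotype tests used group means alone, and tests of time and interaction added a clone term, 21 comparisons in all. The script was tested on simulated data. GENCODE M21 held 53292 of the symbols, and neighbours within 10 kb of a member were looked up there. Named genes were the members, Smarce1, overlapping or neighbouring features, the profiles most like a member, and up to 4 genes of a list with the smallest adjusted p, of which some are given. The members and lists were chosen with earlier results of these data known. Alternatives were clones or libraries left out, libraries fitted singly with and without the replicate number, no filter, other scalings, DESeq2 1.42.0, fewer conditions, no clone term, without CT010467.2 and mitochondrially encoded features, and, after seeing the data, opposite-strand counts added and lists without clone MD09. Precision is limited by counts of 1 to 278 per member and library.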

Additional observations from a re-analysis of the deposited data

Results flagged for a closer look

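Of 72 groups of 4 libraries checked (6 detected members in 12 groups), 2 held a library far from the other 3, both of Lin28a and both the library A10 replicate 1 of its group. Chance flags about 1 in 20 groups, so 2 of 72 is no more than that share. At 45 min in R42A cells it held 72.4 CPM of Lin28a, and the others 42.7 to 47.2. At 240 min in R42A cells it held 24.5 CPM, and the others 17.7 to 18.0. Without the 45 min library the R42A change from 45 to 90 min was -0.26 (edgeR adjusted p = 0.274), against -0.43 with it.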

How the results depend on the processing

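Counts of members called were recomputed under each alternative, and the cause of a change was not tested unless stated. For MD against R42A the asynchronous count was 0 instead of 1 without a filter, with libraries scaled to assigned counts or to the whole table, with DESeq2, with the conditions compared alone, without the 90 min libraries, and with the 48 libraries fitted singly, both without (0) and with (0) the replicate block. At 0 min it was 0 instead of 1 without a filter, with DESeq2's size factors, with either total in place of TMM, with DESeq2, without 90 min and with opposite-strand counts added. At 45 min it was 1 instead of 2 with assigned counts, the conditions compared alone or opposite-strand counts added, and 0 with the whole table. At 180 min it was 0 instead of 1 with libraries fitted singly, with or without the replicate block, with the whole table and with opposite-strand counts added.

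In R42A cells 1 member was called instead of 3 for 90 against 45 min with opposite-strand counts added, and 0 instead of 1 for 180 against 90 min. For 240 against 180 min 1 was called instead of 0 with libraries fitted singly, with or without the replicate block, with the conditions compared alone and without 90 min. For 240 min against asynchronous cells 1 was called instead of 3 with assigned counts or the whole table. In MD cells scaling to the whole table gave 1 instead of 3 for 45 against 0 min and 5 instead of 3 for 90 against 45 min. For 180 against 90 min 1 was called instead of 2 without a filter, with libraries fitted singly, with or without the replicate block, with DESeq2 or its size factors, with the conditions compared alone and without the clone term. The interaction for 45 against 0 min gave 1 (Sall4, -0.66, adjusted p = 0.0273) instead of 0 with the conditions compared alone.

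Where the value was called with or without the change, directions turned with opposite-strand counts added for Pou5f1 in MD against R42A at 90 min (2.42), MD 90 against 45 min (2.13) and MD 180 against 90 min (-2.45), and for Sall4 in MD 0 min against asynchronous cells (-0.36). Scaled to the whole table, MD 90 against 45 min turned to -0.30 for Lin28a and -0.63 for Tdgf1. Values called under neither setting turned as well, among them Sall4 in R42A 0 min against asynchronous cells (-0.26) and Pou5f1 in R42A 240 min against asynchronous cells (-0.40) with opposite-strand counts, and, scaled to the whole table, Sall4 (0.53) and Tdgf1 (0.40) in MD 180 against 90 min and Tdgf1 in 240 min against asynchronous cells (0.12 in both genotypes).

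With 1 clone or library left out, the MD against R42A counts ranged from 0 to 1 (asynchronous, 0 and 180 min), 1 to 3 (45 and 90 min) and 1 to 2 (240 min). R42A 240 min against asynchronous cells ranged from 1 to 4, MD 0 min against asynchronous cells and MD 90 against 45 min from 1 to 3, MD 45 against 0 min from 0 to 3, and MD 180 against 90 min from 1 to 2. A lone clone was assumed to vary like the other groups.

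Counts over all features also moved. Leaving out a clone took MD against R42A from 3135 to as few as 1287 (asynchronous), from 1590 to 578 (0 min), from 4201 to 1894 (45 min), from 9003 to 4672 (90 min), from 3344 to 1379 (180 min) and from 2521 to 1103 (240 min). Time steps kept at least 5204 calls except 240 against 180 min (120 to 3423 in R42A and 6 to 1083 in MD over all alternatives, against 1184 and 82), and interactions ranged from 13 to 473, 1 to 700 and 45 to 549, against 270, 34 and 362.

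Replicate numbers were not taken to pair these samples: of 36 correlations between same-numbered libraries of 2 clones, from -0.206 to 0.925, 5 were over 0.1. Within a genotype, though, same-numbered libraries deviated together at 90 min (0.925 in MD and 0.501 in R42A) and in R42A at 45 min (0.381), a hint from the data and not from the labels. The replicate block changed no other count of members by over 1.5 times. Depth limits Fgf4 and Utf1 most, which fell to 1 and 7 counts in a library.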
